A study of Mus musculus with 12 samples.

Results

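The CAR and PXR responsive genes described here are Cyp2b10, Cyp3a11, Cyp3a13, Cyp3a25, Por and Slco1a4, 6 typical targets of the xenobiotic receptors CAR and PXR, followed in mouse liver across 4 genotypes. A member was measured where a probe set carried its symbol and no other, which held for 5 of the 6 genes and 7 probe sets, of 5856 genes and 8554 probe sets in all. Por, the flavoprotein that passes electrons from NADPH to all microsomal P450 enzymes, was not analysed here. Liver mRNA came from untreated 8-week-old male mice, with 1 array per mouse and 3 mice per genotype (12 arrays). Nrf2-null mice lack Nrf2 in every tissue. Keap1-KD mice carry a loxP-modified Keap1 allele that lowers Keap1 throughout the body. Keap1-HKO mice carry that same allele together with Cre driven by the albumin promoter, so that Keap1 is deleted in hepatocytes while other cells stay at the knockdown state. Wild-type mice were of the C57BL/6 background, onto which the Nrf2-null and Keap1-KD lines had been backcrossed. Values are log2 intensities from gcRMA, and an intensity of 100 (6.64 on the log2 scale) was the limit above which the study took a probe set as expressed.

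CAR (Nr1i3) and PXR (Nr1i2) are nuclear receptors of hepatocytes that respond to drugs, steroids and bile acids. As dimers with RXR they bind paired copies of a short half-site and switch on P450 enzymes, conjugating enzymes and transporters, with Cyp2b10 the classical mouse target of CAR and Cyp3a11 that of PXR. Keap1 holds back the transcription factor Nrf2 by directing it to degradation, so the genotypes form a graded scale of Nrf2 activity, with Nrf2-null at the low end and Keap1-HKO at the high end. The question was whether that scale shifts typical targets of CAR and PXR.

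The promoters of the members were searched for the half-sites that these receptors bind with RXR. Cyp3a11 and Cyp3a25 are shown as the members that held one, and Cyp2b10 as the member nearest to a call, a choice made after the results were seen. RefSeq promoter sequences of mouse build GRCm38.p6 matched all 6 members, and the 250 bases before the annotated start are shown 5′ to 3′ on the strand of the gene, with half-sites in capitals. The Cyp3a11 window is chr5:145879855-145880104 (minus strand), that of Cyp3a25 is chr5:146009619-146009868 (minus strand), and that of Cyp2b10 is chr7:25897408-25897657 (plus strand).
Cyp3a11: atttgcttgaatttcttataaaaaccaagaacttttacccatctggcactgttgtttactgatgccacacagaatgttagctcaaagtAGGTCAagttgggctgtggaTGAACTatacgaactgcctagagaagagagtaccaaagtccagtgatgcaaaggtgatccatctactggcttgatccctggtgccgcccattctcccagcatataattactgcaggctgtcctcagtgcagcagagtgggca
Cyp3a25: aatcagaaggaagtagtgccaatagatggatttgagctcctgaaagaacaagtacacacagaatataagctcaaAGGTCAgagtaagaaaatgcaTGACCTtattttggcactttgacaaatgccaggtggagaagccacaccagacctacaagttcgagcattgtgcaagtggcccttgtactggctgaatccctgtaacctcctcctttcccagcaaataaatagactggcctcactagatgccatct
Cyp2b10: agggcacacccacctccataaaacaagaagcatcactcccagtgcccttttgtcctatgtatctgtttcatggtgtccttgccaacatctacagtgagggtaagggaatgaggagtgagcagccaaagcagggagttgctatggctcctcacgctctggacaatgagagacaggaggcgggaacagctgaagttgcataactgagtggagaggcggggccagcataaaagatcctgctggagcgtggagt
Both strands were searched, and no hit in these windows overlapped another. Cyp3a11 held 1 AGGTCA at positions -162 to -157 from the start and 1 AGTTCA on the opposite strand, printed here as its reverse complement, at -142 to -137. Cyp3a25 held 2 copies of AGGTCA on opposite strands, at -176 to -171 and at -155 to -150, where the copy nearer to the start is printed as its reverse complement. Of 27025 promoter windows of the same length, 13.8% held AGGTCA and 11.9% held AGTTCA. Windows of Cyp2b10, Cyp3a13, Slco1a4 and Por held neither half-site. The known phenobarbital-responsive enhancer of Cyp2b10 lies further upstream than this window. None of the 6 windows held the paired sites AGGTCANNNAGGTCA, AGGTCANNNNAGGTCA or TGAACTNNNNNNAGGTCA, which were found in 0.0074%, 0.0111% and 0% of the windows. None held TGACNNNGC, the core of the antioxidant response element that Nrf2 binds, which was found in 10.1% of the windows. A match to these letters describes the sequence and is not a binding site. The exact pairs are so rare that their absence tells little, and pairs with other letters were not searched for.

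The targeted genes followed the labels: Nfe2l2, which encodes Nrf2, was under the limit in all 3 Nrf2-null arrays (2.29 to 2.46) and between 7.93 and 9.03 in the other 9, and Keap1 was under the limit in all Keap1-KD (5.59 to 5.92) and Keap1-HKO arrays (3.34 to 3.39), against 7.80 to 7.97 in Wild-type arrays. Hepatocyte markers (7 of 9 measured) had a median between 15.8 and 16.0 in every array. Some properties of single arrays touch the results below. Keap1-HKO replicate 1 and Nrf2-null replicate 1 lay furthest from their genotypes, with a mean absolute deviation over all genes of 0.78 and 0.49 from the genotype median (log2), against 0.06 to 0.18 in the other 10 arrays. Summed intensities of pancreatic acinar markers (9 of 12 measured) were 1114 to 1298 in Nrf2-null, 474 to 688 in Keap1-KD, 485 to 170768 in Keap1-HKO and 674 to 1300 in Wild-type arrays, and those of skeletal muscle markers (6 of 10 measured) were 44.2 to 53.2, 43.3 to 51.5, 78.4 to 19589 and 44.4 to 15716 in the same genotypes. The high sums were those of Keap1-HKO replicates 2 and 3 for both tissues and of Wild-type replicate 2 for muscle.

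Across genotypes none of the 5 measured members passed the test, and Cyp2b10 came closest. Its mRNA was highest in Keap1-HKO and lowest in Nrf2-null livers, with an adjusted p of 0.0604 against a threshold of 0.05. These means lay at least 3.34-fold apart, since all Nrf2-null values lay under the limit. With the replicate number as a block, this difference was called (adjusted p = 0.0024). That pairing was read from these same arrays and did not hold for all pairs with Wild-type arrays. With a floor at the limit and no block the adjusted p was 0.114. The Cyp3a enzymes and the transporter Slco1a4 did not follow that order: the highest mean was that of Keap1-KD livers for Cyp3a11, Cyp3a13 and Cyp3a25 and that of Wild-type livers for Slco1a4. In limma, 0 of 5 members were called in Nrf2-null against Wild-type livers (background 0.41% of 5856 genes called), 0 of 5 in Keap1-KD against Wild-type livers (background 0.0683%), 0 of 5 in Keap1-HKO against Wild-type livers (background 3.94%), and 0 of 5 in Keap1-HKO against Nrf2-null livers (background 9.14%). At an unadjusted p under 0.05 the counts were 0, 1 (Cyp3a13, higher), 0 and 1 (Cyp2b10, higher), against 6.92%, 2.54%, 18.6% and 22.1% of all genes. The overall F test over the 4 genotypes called 0 of 5 members (background 4.83%). The multiple range test of the methods, which follows a first test of its own across the 4 genotypes, called 0 of 5 in each of the 4 comparisons. Genes that did not pass this first test at 0.05 were not compared further. These counts thus belong to both steps together, and the range test alone was not counted. The 4 comparisons share arrays, the first 3 the Wild-type arrays, and are not independent of one another.

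Cyp2b10, a P450 that oxidises many drugs and is strongly induced by phenobarbital, had log2 intensities of 5.78, 4.21 and 5.94 in the 3 Nrf2-null mice, 8.31, 5.55 and 6.23 in the Keap1-KD mice, 8.87, 7.34 and 8.94 in the Keap1-HKO mice, and 8.60, 5.65 and 7.33 in the Wild-type mice. All 3 Nrf2-null values lay under the limit of 6.64, all 3 Keap1-HKO values above it, and both other genotypes were spread across it. The means were 5.31 ± 0.95 in Nrf2-null, 6.70 ± 1.44 in Keap1-KD, 8.38 ± 0.90 in Keap1-HKO and 7.19 ± 1.48 in Wild-type livers (SD, n = 3 each). Neighbours in this order did not differ beyond their spread: the step between Keap1-HKO and Wild-type was 1.19 (95% interval -0.79 to 3.17, adjusted p = 0.455), Keap1-KD lay below Wild-type by a log2 difference of -0.50 (-2.48 to 1.48, adjusted p = 1), and the step between Keap1-KD and Nrf2-null was 1.38 (-0.59 to 3.36, adjusted p = 0.674). Nrf2-null livers had a log2 difference of -1.88 (standard error 0.89, 95% interval -3.86 to 0.10, adjusted p = 0.754) from Wild-type livers. The interval included no difference. With the Nrf2-null values held at the limit the means lay at least 1.46-fold apart, where the Wild-type mean included 1 array under the limit. Since whole liver was measured, fewer cells of a type and less RNA per cell cannot be told apart.

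**Figure D1:**
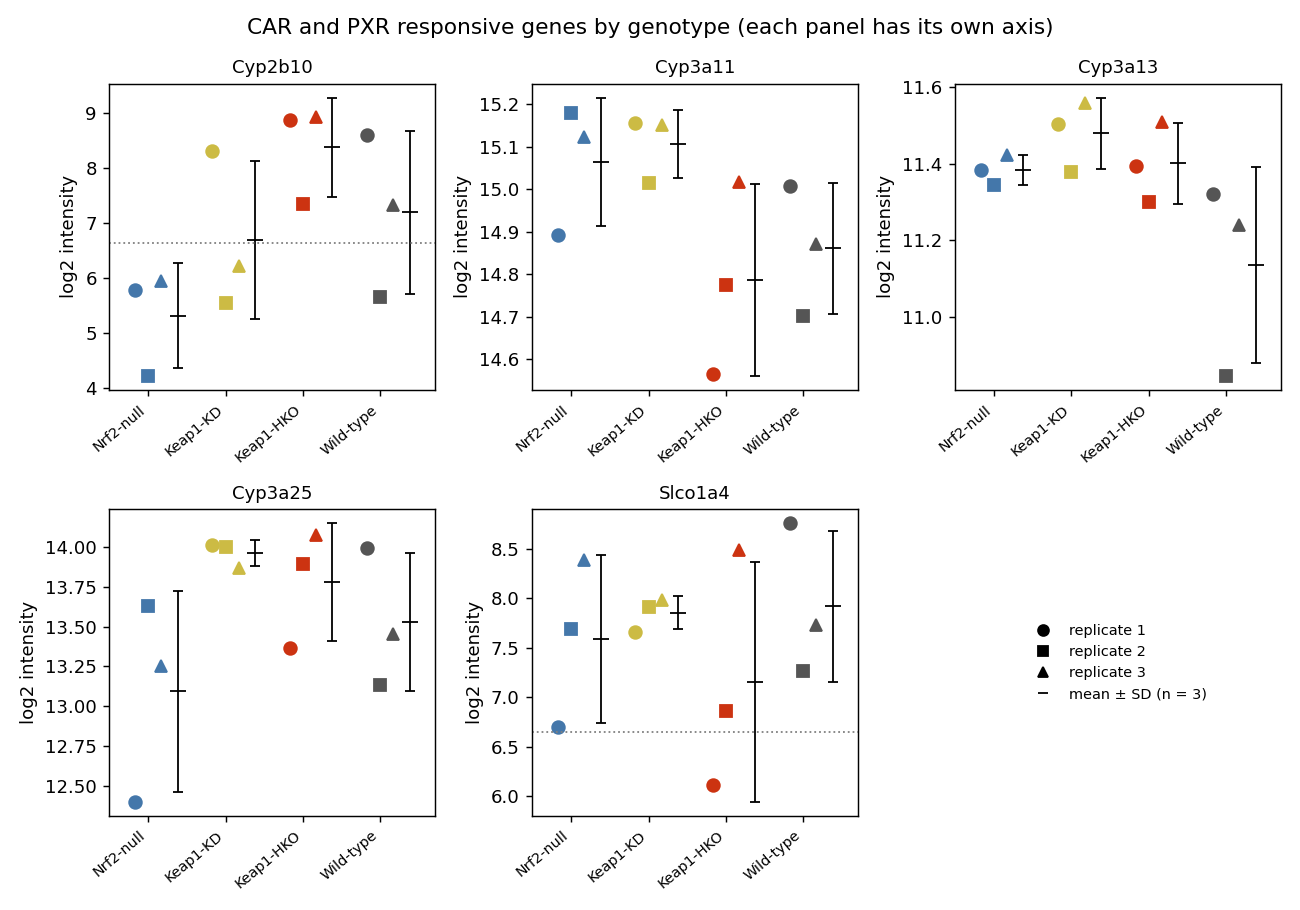
Log2 intensity (y axis) of the 5 measured members in each mouse, by genotype (x axis): circles, squares and triangles are replicates 1, 2 and 3, and bars give mean ± SD (n = 3). The dotted line, in the panels whose values reach it, is the intensity limit of 100 (6.64). For Cyp2b10 the 3 Keap1-HKO mice (7.34 to 8.94) lie above the 3 Nrf2-null mice (4.21 to 5.94), while the other panels show no such gap between these genotypes.

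Between the ends of the scale, Cyp2b10 was higher in all 3 Keap1-HKO mice than in all 3 Nrf2-null mice, an arrangement in that direction held by 9.32% of all genes. The log2 difference was 3.07 (standard error 0.89, 95% interval 1.10 to 5.05, unadjusted p = 0.00602, adjusted p = 0.0604), at least 3.34-fold with Nrf2-null held at the limit. Same-numbered Keap1-HKO and Nrf2-null arrays deviated together, as did 2 pairs of different number, so the replicate number was also fitted as a block. The labels give no shared litter or day, and the pairing was read from these same arrays. Both arrays that stood apart carry number 1, and deviations cancel out within a genotype, so the pairs are not independent of one another. The blocked fits are therefore alternatives and no separate support. With the block the adjusted p was 0.0024 over all genotypes and 0.000432 with only these 2 genotypes. It was 0.00118 with only their replicates 2 and 3, where 1 residual degree of freedom was left. Over all genotypes without the arrays that stood apart it was 0.000306. All but the first of these fits were added after the data were seen. Without the arrays that stood apart and without a block the difference was 3.06 (adjusted p = 0.082, 10 arrays). With a floor at the limit it was 1.74 (adjusted p = 0.114). Over 28 alternatives it ranged over 1.74 to 3.59 and the adjusted p over 0.000306 to 0.366, passing the threshold in 6 of them, 4 of which were the blocked fits. Across Keap1-HKO replicates 1, 2 and 3, Cyp2b10 was 8.87, 7.34 and 8.94, where the pancreatic sums were 485, 170768 and 23545 and the muscle sums 78.4, 19589 and 6788. The part of these sums in the result was not tested.

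A pair of further probe sets measured Cyp2b10. Probe set 1422257_s_at read 4.78, 3.68 and 5.25 in Nrf2-null, 7.67, 4.68 and 5.36 in Keap1-KD, 8.16, 6.69 and 8.32 in Keap1-HKO and 7.77, 4.87 and 6.77 in Wild-type mice. Probe set 1451787_at read 4.52, 4.08 and 4.56 in Nrf2-null, 6.79, 4.66 and 4.66 in Keap1-KD, 7.78, 6.07 and 7.53 in Keap1-HKO and 7.37, 4.68 and 5.94 in Wild-type mice. All 3 probe sets put the mice in much the same order (r = 0.973 to 0.996 over 12 arrays), and in each of them all Keap1-HKO values exceeded all Nrf2-null values. Adjusted over 8554 probe sets (background 9.67% called), Keap1-HKO against Nrf2-null gave a log2 difference of 3.16 with an adjusted p of 0.0553 for 1422257_s_at, 3.07 with 0.0597 for 1425645_s_at, and 2.74 with 0.0483 for 1451787_at. Only 1451787_at passed, and its fold with Nrf2-null held at the limit was at least 1.39. Its mean log2 intensity was over the limit only in Keap1-HKO livers (7.12, with 1 array under it), as was that of 1422257_s_at (7.72). The study's filter, which asked for 1 group over the limit, thus kept both through the genotype where they were highest. Their separation and the call of 1451787_at are therefore no separate support. Both probe sets with the _s_at ending can share probes with related transcripts, and the other Cyp2b and Cyp3a enzymes listed (0 of 10 measured) were not analysed here, so the Cyp2b10 values may hold some signal of paralogs.

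Nr1i3, which encodes CAR itself, is no member. Like Cyp2b10 it was lowest in Nrf2-null and highest in Keap1-HKO livers, while Keap1-KD lay above Wild-type for Nr1i3 and below it for Cyp2b10. It had log2 intensities of 6.84, 5.45 and 5.76 in Nrf2-null, 8.20, 8.11 and 8.31 in Keap1-KD, 9.75, 8.14 and 9.05 in Keap1-HKO and 7.78, 7.66 and 7.69 in Wild-type mice. The narrow Wild-type range separated every Nrf2-null value beneath it from every value of both Keap1 genotypes above it. Of all genes, 7.02% had all Keap1-KD above all Wild-type values, and 9.32% all Keap1-HKO above all Nrf2-null values. The shares with Nrf2-null below or Keap1-HKO above Wild-type are not reported here, so those separations are descriptions only. The log2 difference of Nr1i3 was 2.96 between Keap1-HKO and Nrf2-null livers (standard error 0.41, adjusted p = 0.00141), and 2.19 between Keap1-KD and Nrf2-null livers (adjusted p = 0.0269), both of which passed. Since 2 of the 3 Nrf2-null arrays were under the limit, these sizes rest partly on values not above it. With a floor at the limit the Keap1-HKO difference was 2.27 (adjusted p = 0.00116). Against Wild-type livers the differences were -1.69 in Nrf2-null (adjusted p = 0.203), 0.50 in Keap1-KD (adjusted p = 1) and 1.27 in Keap1-HKO livers (adjusted p = 0.134), none of which passed. Over 26 alternatives they passed in 4 for Nrf2-null, 1 for Keap1-KD and 6 for Keap1-HKO livers. Over the 12 arrays Nr1i3 and Cyp2b10 correlated with r = 0.753, and with r = 0.682 over the 10 arrays left after removing those that stood apart. These points share arrays, and the lowest and highest genotypes were the same for both genes. Nr1i2, which encodes PXR, differed by 0.19 between Keap1-HKO and Nrf2-null livers (adjusted p = 0.57), with overlapping values of 6.79 to 7.31 in Keap1-HKO and 6.66 to 6.86 in Nrf2-null livers.

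**Figure D2:**
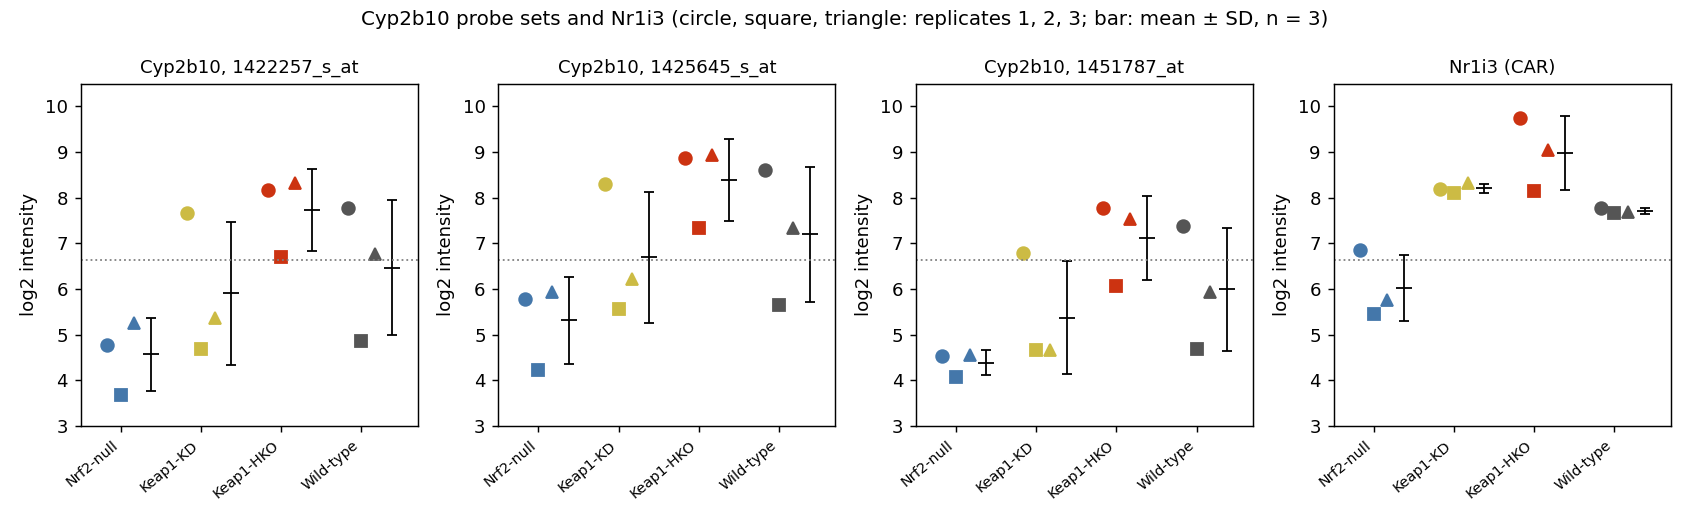
Log2 intensity (y axis) of the 3 Cyp2b10 probe sets and of Nr1i3, which encodes CAR, in each mouse by genotype (x axis). Symbols are replicates, bars mean ± SD (n = 3), and the dotted line is the intensity limit of 100 (6.64). In every panel the Keap1-HKO mice lie above the Nrf2-null mice, while within Keap1-KD and Wild-type the Cyp2b10 values are spread widely and those of Nr1i3 narrowly (8.11 to 8.31 and 7.66 to 7.78).

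The Cyp3a enzymes, which oxidise steroids, bile acids and many drugs, were at high intensity in every liver. Cyp3a11 had log2 intensities of 14.89, 15.18 and 15.12 in Nrf2-null, 15.16, 15.01 and 15.15 in Keap1-KD, 14.57, 14.77 and 15.02 in Keap1-HKO and 15.01, 14.70 and 14.87 in Wild-type mice. Apart from the Keap1-KD values, which all lay above the Wild-type values (an arrangement held by 7.02% of all genes), the genotypes overlapped. The differences from Wild-type livers were 0.20 in Nrf2-null (adjusted p = 0.823), 0.25 in Keap1-KD (adjusted p = 1) and -0.07 in Keap1-HKO livers (95% interval -0.41 to 0.26, adjusted p = 0.767). Keap1-HKO livers differed from Nrf2-null livers by -0.28 (95% interval -0.61 to 0.06, adjusted p = 0.326), so the interval held no rise beyond 1.04-fold. Direct comparison of genes by these intensities is not possible, since each probe set binds with its own strength.

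Cyp3a13, the member of the family that is also abundant in mouse intestine, had log2 intensities of 11.38, 11.35 and 11.42 in Nrf2-null, 11.50, 11.38 and 11.56 in Keap1-KD, 11.39, 11.30 and 11.51 in Keap1-HKO and 11.32, 10.85 and 11.24 in Wild-type mice. Wild-type was the lowest genotype, with replicate 2 far below the other 11 arrays. All 3 Nrf2-null and all 3 Keap1-KD values lay above all 3 Wild-type values, as for 12.1% and 7.02% of all genes. The difference from Wild-type livers was 0.25 in Nrf2-null (adjusted p = 0.823), 0.34 in Keap1-KD (standard error 0.14, unadjusted p = 0.0352, adjusted p = 1) and 0.27 in Keap1-HKO livers (adjusted p = 0.336). Keap1-HKO livers differed from Nrf2-null livers by 0.02 (95% interval -0.30 to 0.33, adjusted p = 0.971).

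Cyp3a25, a hepatic enzyme of the same cluster, had log2 intensities of 12.40, 13.63 and 13.25 in Nrf2-null, 14.01, 14.00 and 13.87 in Keap1-KD, 13.36, 13.90 and 14.08 in Keap1-HKO and 14.00, 13.13 and 13.45 in Wild-type mice. Keap1-KD values formed a narrow band above all Nrf2-null values, and the lowest array was Nrf2-null replicate 1. The difference from Wild-type livers was -0.43 in Nrf2-null (adjusted p = 0.823), 0.43 in Keap1-KD (adjusted p = 1) and 0.25 in Keap1-HKO livers (adjusted p = 0.638). Between Keap1-HKO and Nrf2-null livers it was 0.68 (95% interval -0.03 to 1.40, adjusted p = 0.252), and between Keap1-KD and Nrf2-null livers 0.87 (unadjusted p = 0.0225, adjusted p = 0.339, background 1.37% called and 8.3% with all 3 arrays above all 3). Nrf2-null was the lowest genotype for Cyp2b10 and Cyp3a25, Wild-type for Cyp3a13, and Keap1-HKO for Cyp3a11 and Slco1a4.

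Slco1a4, which encodes the organic anion transporter Oatp1a4 of the sinusoidal membrane, had log2 intensities of 6.69, 7.69 and 8.39 in Nrf2-null, 7.66, 7.92 and 7.98 in Keap1-KD, 6.12, 6.86 and 8.48 in Keap1-HKO and 8.76, 7.27 and 7.73 in Wild-type mice. All genotypes overlapped, and the widest spread was within Keap1-HKO mice (mean 7.15 ± 1.21, SD, n = 3). The arrays that stood apart, Nrf2-null replicate 1 and Keap1-HKO replicate 1, held the lowest values. The difference from Wild-type livers was -0.33 in Nrf2-null (adjusted p = 0.867), -0.07 in Keap1-KD (95% interval -1.43 to 1.30, adjusted p = 1) and -0.76 in Keap1-HKO livers (95% interval -2.13 to 0.60, adjusted p = 0.474). The interval in Keap1-HKO livers thus held levels between 0.229 and 1.51 times the Wild-type level.

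**Figure D3:**
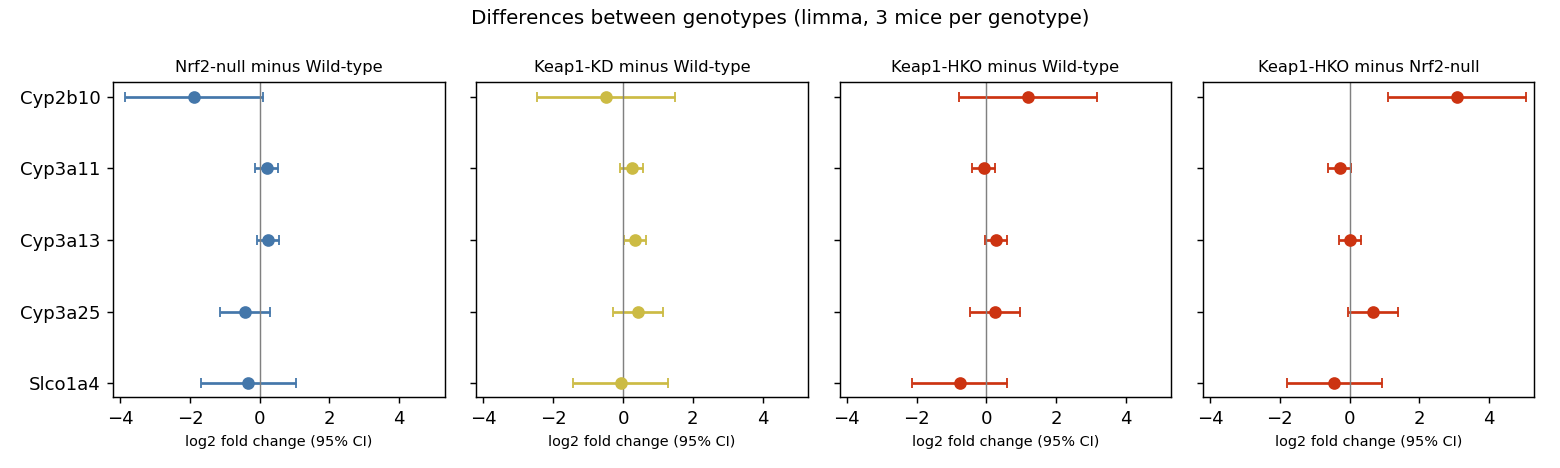
Log2 fold change (x axis) with its 95% confidence interval from limma for the 5 measured members (rows) in 4 comparisons (panels), 3 mice per genotype. Only the intervals of Cyp2b10 between Keap1-HKO and Nrf2-null (1.10 to 5.05) and of Cyp3a13 between Keap1-KD and Wild-type (0.03 to 0.66) leave out 0 before adjustment, and the intervals of Cyp2b10 and Slco1a4 are several times wider than those of Cyp3a11 and Cyp3a13.

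In Wild-type and Keap1-HKO livers the members tended to be high in the same mice (Cyp2b10 stands on chromosome 7, the Cyp3a genes on 5, Slco1a4 on 6). Nrf2-null and Keap1-KD livers were split. The highest Nrf2-null value was that of replicate 2 for 2 members and of replicate 3 for 3. The highest Keap1-KD value was that of replicate 1 for 3 members and of replicate 3 for 2. Wild-type replicate 1 had the highest and Wild-type replicate 2 the lowest Wild-type value for 5 of 5 members, an arrangement held by 26.3% of all genes. Keap1-HKO replicate 3 had the highest Keap1-HKO value for 5 of 5 members, as for 21.3% of all genes. After subtracting each genotype's mean, the deviations of all 10 pairs of members correlated positively over 12 arrays (r = 0.0855 to 0.896, median 0.574) and over the 10 arrays without those that stood apart (r = 0.495 to 0.894, median 0.752). Over 12 arrays Cyp2b10 had r of 0.0855 with Cyp3a25, 0.272 with Slco1a4, 0.303 with Cyp3a11 and 0.746 with Cyp3a13. The share of positive pairs over all genes was not counted. These are descriptions over arrays that share mouse, extract and normalization. Wild-type replicate 2, which was the lowest Wild-type mouse for every member, carried the muscle signal (summed intensity 15716, against 44.4 and 45.3 in the other Wild-type arrays), and its part in the low values was not tested.

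**Figure D4:**
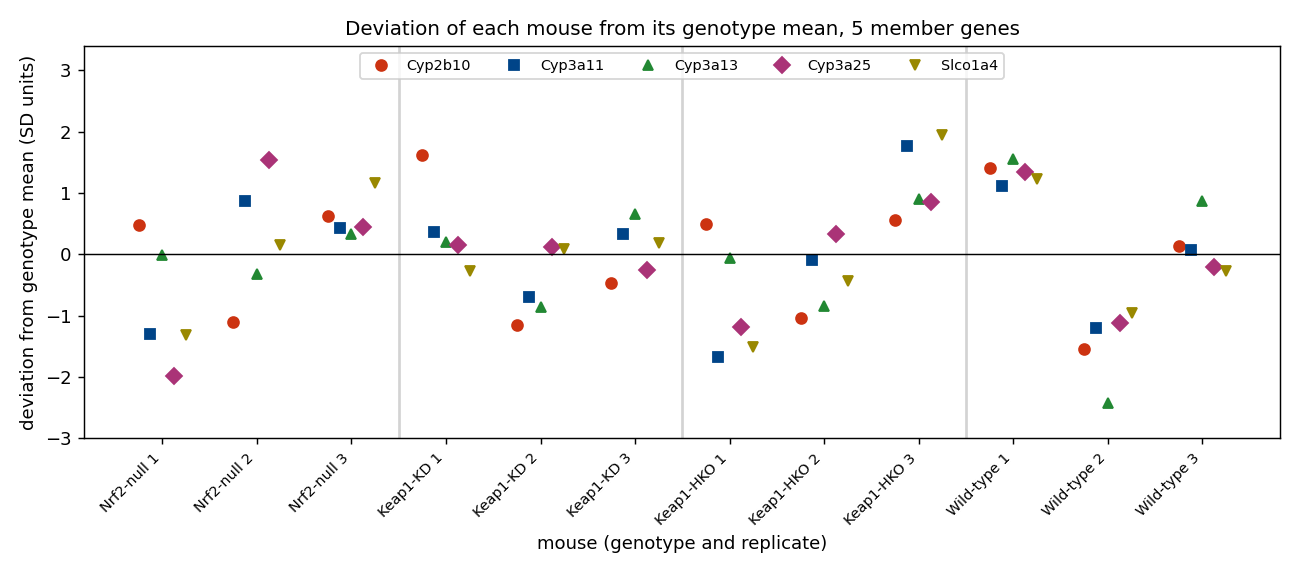
Deviation of each mouse from the mean of its genotype (y axis, in SD of that gene's 12 deviations) for the 5 measured members, by mouse (x axis). All members lie above 0 in Wild-type replicate 1, Keap1-HKO replicate 3 and Nrf2-null replicate 3, and below 0 in Wild-type replicate 2, while Nrf2-null replicate 1 and Keap1-HKO replicate 1 split them, with Cyp2b10 above 0 and Cyp3a11, Cyp3a25 and Slco1a4 below.

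The genes whose log2 values were most like each member over 12 arrays were Rdh16 (r = 0.886) and Akr1c19 (0.874) for Cyp2b10, Acad11 (0.899) and Hsdl2 (0.868) for Cyp3a11, Fnip2 (0.837) and Slc25a47 (0.815) for Cyp3a13, Snhg6 (0.886) and Smc1a (0.871) for Cyp3a25, and Hsd11b1 (0.923) and Tdp2 (0.904) for Slco1a4. Without the arrays that stood apart, Rdh16 stayed among the closest for Cyp2b10 (r = 0.905, after Cyp2d22 with 0.928), and the closest genes of the other 4 members were different ones: Ttc1 (0.925) and Acaa1b (0.917) for Cyp3a11, Rpl13a (0.939) and Decr2 (0.937) for Cyp3a13, Kat2a (0.969) and Rpl35 (0.924) for Cyp3a25, and Txnl4a (0.961) and Mrps17 (0.900) for Slco1a4. Each pair was picked as the highest over all genes, so the values are descriptions.

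Other targets of CAR and PXR (12 of 26 listed were measured) gave calls only in the comparisons of Keap1-HKO livers. None was called in Nrf2-null or Keap1-KD livers against Wild-type livers, 1 was higher in Keap1-HKO than in Wild-type livers, and 3 were higher in Keap1-HKO than in Nrf2-null livers, with 0 lower in each. The shares called over all genes were 0.41%, 0.0683%, 3.94% and 9.14% in the same comparisons. The list's median log2 differences were -0.38 in Nrf2-null, -0.06 in Keap1-KD and 0.02 in Keap1-HKO livers against Wild-type livers, and 0.56 between Keap1-HKO and Nrf2-null livers, beside medians of 0.02, -0.01, -0.01 and -0.05 over all genes. Abcc2, an efflux pump of the bile canaliculus, read 11.43, 11.81 and 11.61 in Keap1-HKO mice, against 11.07, 10.71 and 10.93 in Wild-type mice and 10.52, 10.71 and 10.51 in Nrf2-null mice. Its Keap1-HKO values lay above those of both other genotypes, with mean differences of 0.71 over Wild-type (adjusted p = 0.0198) and 1.04 over Nrf2-null livers (adjusted p = 0.00123). Of all genes, 9.32% had all Keap1-HKO above all Nrf2-null values, and the share against Wild-type is not reported here. The other 2 were Cyp1a2, a P450 best known as a target of the Ah receptor, with 0.91 (adjusted p = 0.0141), and the aldehyde dehydrogenase Aldh1a7, with 0.64 (adjusted p = 0.0324), both between Keap1-HKO and Nrf2-null livers. The Aldh1a7 call was lost in 12 of 28 alternatives (adjusted p up to 0.274) and the Cyp1a2 call in 3.

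Genes that answer to CAR or PXR and also to Nrf2 (15 of 16 listed were measured) gave many calls in 1 direction. Of these, 6 were lower in Nrf2-null, 2 higher in Keap1-KD and 12 higher in Keap1-HKO than in Wild-type livers, and 14 were higher in Keap1-HKO than in Nrf2-null livers, with no call in the opposite direction. The shares called over all genes were 0.41%, 0.0683%, 3.94% and 9.14% in the same comparisons. Abcc3, a basolateral efflux pump, read 12.90, 12.16 and 12.51 in Keap1-HKO mice, against 8.23, 7.43 and 7.69 in Nrf2-null mice, a log2 difference of 4.74 (adjusted p = 5.46e-06). Gstm1, a glutathione transferase, read 16.01, 15.82 and 15.91 in Keap1-HKO mice, against 11.70, 10.84 and 10.86 in Nrf2-null mice, a log2 difference of 4.78 (adjusted p = 7.48e-06). Cyp2b10 was the member nearest to these, at 3.07, and the other 4 members lay between -0.44 and 0.68. The list was drawn up from known Nrf2 targets, so its direction is no independent evidence.

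**Figure D5:**
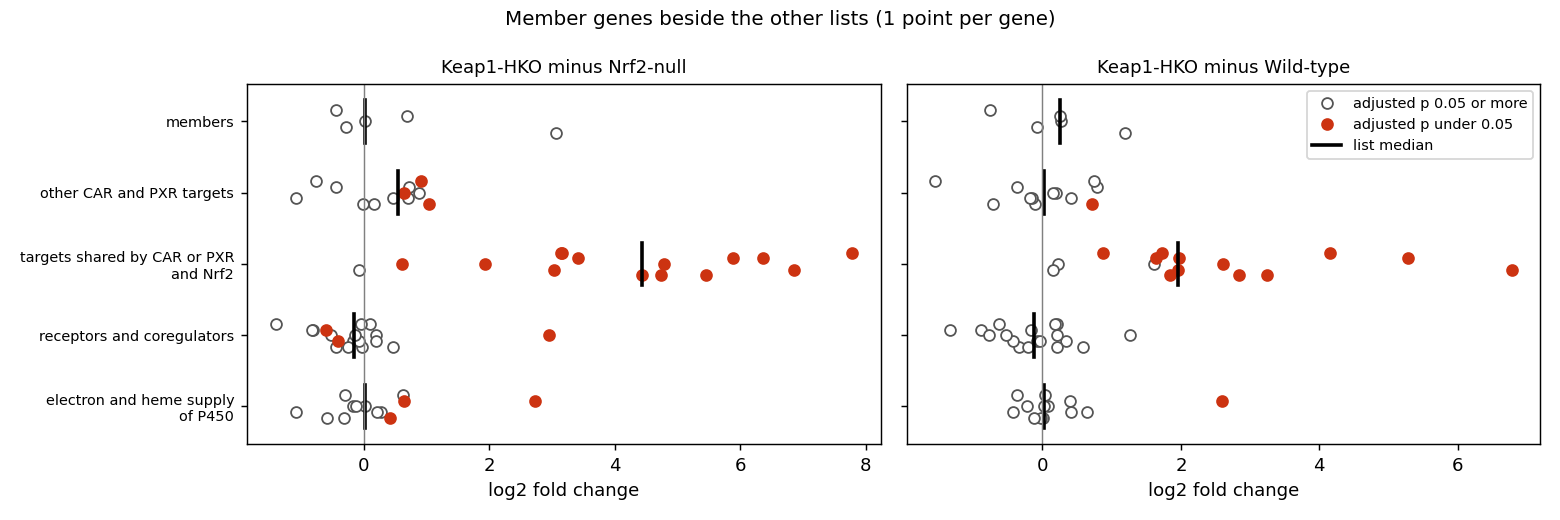
Log2 fold change (x axis) of each measured gene in the members and 4 further lists (rows), between Keap1-HKO and Nrf2-null (left panel) and between Keap1-HKO and Wild-type livers (right panel). Filled points have an adjusted p under 0.05 in limma and black bars are list medians. No member is filled in either panel, while 14 and 12 of the 15 targets shared with Nrf2 are.

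Of the receptors and coregulators that act with CAR and PXR (18 of 23 measured), none was called against Wild-type livers in the fit as reported. Between Keap1-HKO and Nrf2-null livers 3 were called (background 9.14% of all genes). Nr1i3 was higher, and the nuclear receptor coactivators Ncoa1 (-0.41, adjusted p = 0.0471) and Ncoa3 (at least 1.40-fold, with all Keap1-HKO arrays under the limit, adjusted p = 0.0441) were lower in Keap1-HKO livers. Without Keap1-HKO replicate 3 neither passed (adjusted p = 0.0645 for Ncoa1 and 0.131 for Ncoa3), nor in most other settings. Rxra, the shared partner, differed by -0.07 (adjusted p = 0.891). Among genes that supply P450 enzymes with electrons and heme (13 of 17 measured), Blvrb, a flavin and biliverdin reductase, was higher in Keap1-HKO than in Wild-type livers (2.60, adjusted p = 0.000776). Against Nrf2-null livers Blvrb (2.73, adjusted p = 0.000233), Fech, the ferrochelatase that completes heme (0.64, adjusted p = 0.00613), and Cyb5a, the cytochrome b5 that donates electrons to Cyp3a enzymes (0.42, adjusted p = 0.0441), were higher in Keap1-HKO livers. The shares of all genes called were 3.94% against Wild-type and 9.14% against Nrf2-null livers. The Cyb5a call was lost in 16 of 28 alternatives (adjusted p up to 0.347) and the Fech call in 1. Alas1, the first enzyme of heme synthesis and itself a CAR and PXR target, read 12.47, 12.22 and 10.12 in Nrf2-null, 9.98, 8.72 and 10.61 in Keap1-KD, 10.44, 11.64 and 9.48 in Keap1-HKO and 10.71, 10.30 and 9.30 in Wild-type mice, without a call.

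Other Oatp uptake transporters (4 of 11 measured) had no call in the 4 comparisons of the fit as reported. Slco1a1 read 6.50, 10.88 and 10.37 in Keap1-HKO mice, against 12.23, 12.33 and 12.24 in Wild-type mice. All its Keap1-HKO values were lower, an arrangement whose share over all genes is not reported here. The difference of -3.02 (standard error 0.98, adjusted p = 0.139) rested in large part on Keap1-HKO replicate 1, which was under the limit and stood furthest apart. Without that array the difference was -1.64 (adjusted p = 0.141). Without both arrays that stood apart it was also -1.64, and limma called it (adjusted p = 0.000495). The call was made in 3 of 26 alternatives, the others being the block besides (adjusted p = 0.00164) and the multiple range test on un-logged values. Clock and PAR bZip factors, which act on xenobiotic genes through the day (7 of 15 measured), had 2 calls, Hlf (at least 1.09-fold, with all Keap1-HKO arrays under the limit, adjusted p = 0.0183) and Cry1 (-1.09, adjusted p = 0.0337), both lower in Keap1-HKO than in Nrf2-null livers. Neither call held throughout: with a floor at the limit Hlf had an adjusted p of 0.592, and without Keap1-HKO replicate 1 Cry1 had 0.055. Pericentral hepatocyte genes (10 of 12 measured), which mark the zone where Cyp2b and Cyp3a enzymes are mainly expressed, had 1 call, the ammonium transporter Rhbg (adjusted p = 0.0179), at least 2.18-fold higher in Keap1-HKO than in Nrf2-null livers, whose 3 arrays were under the limit. Over all genes 9.14% were called between these genotypes.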

How the data were processed

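Liver RNA of 12 mice (4 genotypes, 3 each) was hybridised to 1-colour Affymetrix arrays. The deposited log2 values had been made by the authors with gcRMA in R, and probe sets over an intensity of 100 in at least 1 group had been kept. The scanner files were not used here. Of 9622 probe sets, 8554 had 1 gene symbol, 371 had several and 697 had none, and only the first were used, with the probe set of highest mean for each of 5856 genes. Array medians lay between 8.22 and 8.37 (log2), the median SD within genotypes was 0.291, and the number of arrays limits the precision. The p-values measure the spread between 3 mice per genotype.

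Genotypes were compared with limma 3.58.1 (lmFit and eBayes) in R 4.3.3, in 1 fit with 8 residual and 2.19 prior degrees of freedom, two-sided, with Benjamini-Hochberg adjustment over 5856 genes, called under 0.05. Where all 3 arrays of a group lay under the limit, the bound sets that group at 6.64. It concerns the group means and takes no account of their spread. The members and lists were chosen with earlier results of these data known. Genes named outside the members were the called genes of each list (at most 6, of which some are left out), or the 2 with the lowest adjusted p, and the closest by correlation, besides Rxra and Alas1, which were added after their values were seen. Fits were tested on simulated data. Motifs were counted in RefSeq promoters.

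The labels give replicate numbers but no shared litter or day. Same-numbered Keap1-HKO and Nrf2-null arrays deviated together in 3 of 3 pairs (r = 0.685 to 0.787), and so did 2 pairs of different number (up to 0.622). Both arrays that stood apart carry number 1, and deviations from a genotype mean cancel out within the genotype. The 3 pairs are therefore not independent observations of a pairing. Pairs with Wild-type arrays included values under 0.1, so the block is given beside Keap1-HKO against Nrf2-null results only where it changes a call. Alternatives were another filter, a floor at 100, other scalings, other probe set choices, other forms of the test, the multiple range test of the methods, array weights, only the 2 groups compared, the replicate block, and each array left out. Leaving out the 2 arrays that stood apart together, the block within 2 genotypes (also with replicates 2 and 3 alone), and the block without the 2 arrays, were added after seeing the data.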

Additional observations from a re-analysis of the deposited data

How the results depend on the processing

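No member was called under any other choice of filter, floor, scaling, probe set for the gene fit, robust fit or multiple range test, nor with only the 2 groups compared or, without a block, without both arrays that stood apart. With array quality weights, whose estimation stopped before convergence, 2 members were called in Nrf2-null against Wild-type livers (Cyp2b10 and Cyp3a11), 1 in Keap1-KD against Wild-type livers and 1 in the overall test (Cyp3a11 in both). With the replicate block 1 member, Cyp2b10, was called between Keap1-HKO and Nrf2-null livers and in the overall test, and likewise 1 with the block within those 2 genotypes or within their replicates 2 and 3, where 1 residual degree of freedom was left. With the block and without both apart arrays, 1 member, again Cyp2b10, was called in each of Nrf2-null and Keap1-HKO against Wild-type livers, Keap1-HKO against Nrf2-null livers and the overall test. Of the same-numbered pairs with Wild-type arrays, only 2 of 3 had r over 0.1 for each other genotype. The block changed no other member's call. With each array left out, 0 to 1 members were called between Keap1-HKO and Nrf2-null livers. The 1 was Cyp2b10 without Keap1-KD replicate 1 (adjusted p = 0.0455) or without Wild-type replicate 2 (adjusted p = 0.0483). The cause was not tested.

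Directions turned for the following differences. Cyp3a13 between Keap1-HKO and Nrf2-null was -0.00631 after a second quantile normalization and -0.100 with array weights. Slco1a4 was 0.385 in Nrf2-null and 0.077 in Keap1-KD against Wild-type with array weights. Without both arrays that stood apart, Slco1a4 in Nrf2-null was 0.12 and Cyp3a11 in Keap1-HKO 0.036 against Wild-type. With the block as well these were 0.282 and 0.085, and Cyp3a25 in Nrf2-null was 0.043. With each array left out, the differences from Wild-type ranged over -0.726 to 0.12 for Slco1a4 and -0.165 to 0.035 for Keap1 in Nrf2-null, over -1.31 to 0.205 for Cyp2b10, -0.39 to 0.354 for Slco1a4 and -0.164 to 0.025 for Nfe2l2 in Keap1-KD, and over -0.19 to 0.036 for Cyp3a11 in Keap1-HKO livers. Between Keap1-HKO and Nrf2-null they ranged over -0.0377 to 0.067 for Cyp3a13 and -1.10 to 0.081 for Slco1a4.

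Counts over all genes moved by over 1.5 times in some settings. Nrf2-null against Wild-type gave 24 calls, with 316 and 296 by the multiple range test on log2 and un-logged values, 1379 with array weights, 13 with only 2 groups, 44 with the block, 59 without both apart arrays and 86 with both changes. Keap1-KD against Wild-type gave 4, with 1 at the floor, 0 after the second quantile step (149 at an unadjusted p under 0.05 in the fit as reported), 132 and 122 by the multiple range test, 323 with weights, 7 with only 2 groups and also without both apart arrays, and 17 with the block besides. Keap1-HKO against Wild-type gave 231, with 703 and 671 by the multiple range test, 49 with only 2 groups, 381 with the block, 671 without both apart arrays and 797 with both changes. Keap1-HKO against Nrf2-null gave 535, with 850 by the multiple range test, 835 with weights, 110 with only 2 groups, 1222 without both apart arrays, 1473 with the block besides and 940 with the block within replicates 2 and 3. With each array left out the counts were 12 to 36, 1 to 5, 89 to 272 and 330 to 853. Cyp2b10 lay near the intensity limit, where signal over background bounds its fold.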
